A study of Pan troglodytes with 8 samples.

Results

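The comparison was of open chromatin in neurons (N) against basal radial glia (bRG), both sorted from chimpanzee cerebral organoids. It used every region of the deposited count table that had a chimpanzee identifier, whatever its closest gene, in the 2 libraries of N and the 2 of bRG. These members numbered 211348 of 218080 regions and 4 of 8 libraries. Chromatin accessibility had been read out by ATAC-seq on bulk cells, an assay that tags open DNA with a transposase. All 8 libraries came from 1 induced pluripotent stem cell line, SandraA, grown as organoids from 9000 seeded cells and collected at week 8 of culture, give or take 3 days. Flow cytometry gave basal radial glia, neurons labelled as BCL11B+, apical radial glia (aRG) and basal intermediate progenitors (bIP), with 2 libraries each. The labels name no other gene of the gates, and no treatment or allele that separates the groups. They do not say whether libraries 1 and 2 of a population came from separate organoid cultures, so p-values measure the spread between these libraries only.

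Basal radial glia are neural stem cells of the developing cortex that have left the ventricular surface and keep a long fibre towards the outer surface. They divide to renew themselves and to give intermediate progenitors and neurons, under the influence of Notch, FGF, BMP, Wnt and Hedgehog signals and of the surrounding matrix. As a cell becomes a neuron it stops dividing, loses the stem cell transcription factors and turns on the genes of axons, ion channels and synapses. An accessible region is a stretch of DNA that the transposase can enter, often a gene start or an enhancer.

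The 4 libraries held 25221705 to 34845193 counts in regions, and values are given in CPM, a count scaled to library size and between libraries. A region's CPM is scaled to the counts in all regions. The log2 CPM of regions correlated at 0.945 between the N libraries and 0.969 between the bRG libraries, and at 0.432 to 0.501 between N and bRG libraries. Regions are not replicates, and these correlations run across them. Libraries are sums over sorted cells, so a change in the share of cells that open a region and a change in every cell cannot be told apart.

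For each protein-coding gene the counts of all regions closest to it and at most 50 kb away were summed and called its locus. The name locus is used for nearness and says nothing of regulation. A locus's CPM is scaled to the counts in all loci, so 1 read gives 2.39 to 2.57 times as much CPM at a locus as at a region in these 4 libraries. Values at stated coordinates or at a gene's start are region CPM, and other values of a gene are locus CPM. Differences are N minus bRG on the log2 scale with SE. A region or locus "rose" or "fell" in N where edgeR's quasi-likelihood test gave a Benjamini-Hochberg adjusted p under 0.05. Of 14070 loci tested, 25.2% rose and 26.3% fell, and the median difference of all loci was 0.01.

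The markers of neurons and of radial glia were examined first. NEUROD2, a transcription factor of newborn excitatory neurons, had 55.8 and 52.9 CPM in bRG 1 and 2, and 383 and 379 CPM in N 1 and 2, over 9 regions. Both N libraries lay far above both bRG libraries (2.81 ± 0.11, adjusted p = 1.2e-05), and 8 of its 9 regions rose singly. HOPX, a homeodomain gene used to mark basal radial glia, had 214 and 224 CPM in bRG against 63.5 and 52 CPM in N over 4 regions (-1.92 ± 0.11, adjusted p = 1.5e-05). The bRG libraries were higher than the N libraries and the groups did not overlap. The aRG libraries had 238.5 and 209.1 CPM at HOPX, so its level did not tell bRG from aRG. SOX2, which keeps neural stem cells undifferentiated, had 256 and 247 CPM in bRG and 56.2 and 47.5 CPM in N (-2.27 ± 0.12, adjusted p = 1.5e-05). Its deepest fall was not at the start but at chr3:179795561-179796420, where 32.2 and 28 CPM in bRG stood against 1.21 and 1.06 CPM in N (-4.72 ± 0.24, adjusted p = 6.5e-08). PAX6, the paired-box factor of dorsal radial glia, had 133 and 126 CPM in bRG and 53.4 and 49 CPM in N, and it fell (-1.34 ± 0.11, adjusted p = 3.6e-05). All coordinates are chimpanzee panTro6, counted from 1.

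Other neuronal markers moved less, and 1 went down. TBR1, a T-box factor of young deep-layer neurons, had 68.2 and 68 CPM in bRG and 132 and 122 CPM in N (0.90 ± 0.10, adjusted p = 0.00017). STMN2, a regulator of axonal microtubules, had 47.5 and 60.1 CPM in bRG and 144 and 160 CPM in N (1.5 ± 0.15, adjusted p = 1e-04). The N libraries were above the bRG libraries at both genes. NEUROD6 (0.69 ± 0.15, adjusted p = 0.0046) and MAPT (0.70 ± 0.09, adjusted p = 0.00026) rose as well by edgeR's test. TUBB3, the neuronal beta-tubulin gene, had 254 and 234 CPM in bRG and 202 and 190.1 CPM in N over 3 regions (-0.32 ± 0.08, adjusted p = 0.0082). It fell slightly, although its start taken alone rose (0.25, adjusted p = 0.029). The fall of TUBB3 was not called with loess scaling (-0.15, adjusted p = 0.091) or without bRG 1 (-0.26, adjusted p = 0.075).

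BCL11B, by which the neurons are labelled, was not higher in N over its whole locus. It had 153 and 136 CPM in bRG 1 and 2 and 132 and 115 CPM in N 1 and 2 (-0.23 ± 0.10, adjusted p = 0.095, edgeR). All 4 values were close, and without N 1 the locus was lower in N (-0.34, adjusted p = 0.044). Its start alone rose (0.36, adjusted p = 0.0099) and the rest of the locus fell (-0.59, adjusted p = 0.0063). EOMES, the defining factor of intermediate progenitors, had 104 and 126 CPM in bRG and 122 and 83.6 CPM in N, so the groups overlapped (-0.15 ± 0.16, adjusted p = 0.45, edgeR). Without N 1 the EOMES locus was lower in N (-0.46, adjusted p = 0.016), and without N 2 the difference was 0.09 (adjusted p = 0.55).

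Over their whole loci the 7 markers of basal radial glia gave a divided picture. HOPX fell, and so did TNC, a matrix glycoprotein, with 82.9 and 87.6 CPM in bRG and 29.7 and 32.2 CPM in N (-1.46 ± 0.09, adjusted p = 1.8e-05). In aRG the TNC locus had 72.4 and 74.6 CPM. LIFR, a cytokine receptor subunit, rose at its single region, 12 kb from the gene, with 2.74 and 3.61 CPM in bRG and 16.6 and 27.8 CPM in N (2.80 ± 0.38, adjusted p = 0.00041). PTPRZ1 (-0.31 ± 0.12, adjusted p = 0.056), FAM107A (-0.25 ± 0.14, adjusted p = 0.16), MOXD1 (0.02 ± 0.09, adjusted p = 0.86) and PALMD (-0.22 ± 0.09, adjusted p = 0.064) did not pass edgeR's test. Without N 2 PTPRZ1 passed (-0.47, adjusted p = 0.016), and without N 1 FAM107A passed (-0.48, adjusted p = 0.015). The starts alone told these genes apart more sharply. The FAM107A start fell by 3.02 (adjusted p = 5.1e-06) and the MOXD1 start by 1.01 (adjusted p = 0.0031), while the PALMD start rose by 0.65 (adjusted p = 0.011). At PTPRZ1 the start fell too by edgeR's test (-0.44, adjusted p = 0.0021).

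Markers that all radial glia share fell together. HES1, a repressor induced by Notch signals, had 182 and 172 CPM in bRG and 37.8 and 32.1 CPM in N (-2.34 ± 0.15, adjusted p = 2.1e-05). VIM, the intermediate filament of the radial fibre, had 260.1 and 247 CPM in bRG and 94.5 and 82.8 CPM in N (-1.52 ± 0.12, adjusted p = 3.1e-05). SLC1A3, a glutamate transporter of glia, had 133 and 171 CPM in bRG and 38.2 and 43.7 CPM in N (-1.90 ± 0.29, adjusted p = 8e-04). At all 3 loci the bRG libraries were more than 2-fold higher and no values overlapped. The plot of marker loci by library shows these groups side by side.

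**Figure D1:**
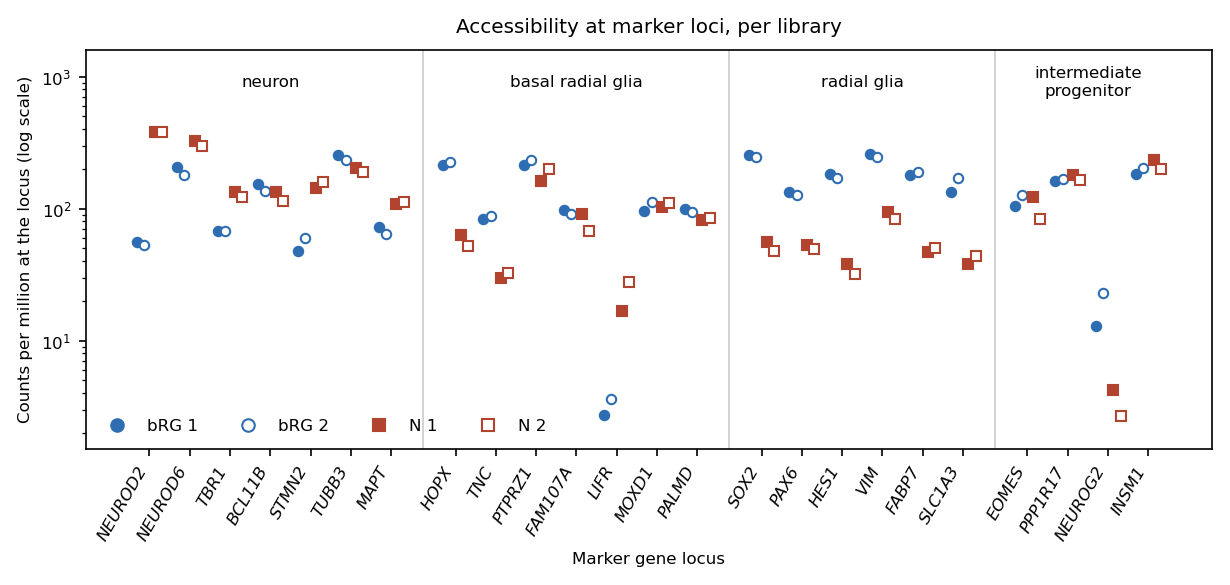
CPM at the loci of 24 marker genes (log scale), with bRG libraries as blue circles and N libraries as red squares, library 1 filled and library 2 open. NEUROD2 stands near 380 CPM in N and near 54 CPM in bRG, and the 6 radial glia loci are all lower in N. The groups overlap at EOMES, MOXD1, PPP1R17 and INSM1, and nearly so at BCL11B and FAM107A.

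Most of the accessible genome differed between the populations. Of 198227 regions tested, 74338 rose in N, or 37.5%, and 60232 fell, or 30.4%, so that 67.9% were called by edgeR. The changes were large: 69432 risen and 52617 fallen regions differed at least 2-fold, 21784 and 14349 at least 8-fold, and 3295 and 4507 at least 16-fold. In 83.9% of regions both N libraries lay on the same side of both bRG libraries. A typical risen region had a median of 0.559 and 0.578 CPM in bRG 1 and 2 and 3.14 and 3.57 CPM in N 1 and 2. A typical fallen region had 3.91 and 3.67 CPM in bRG and 0.714 and 0.707 CPM in N. The median difference of all regions was 0.17, and it was 0.05 with size factors of the DESeq2 kind and 0.01 in a fit of the 4 libraries alone, so the balance of rises and falls depends on the scaling. In those settings 51.9% and 50.5% of the called regions had risen, against 55.2% as reported.

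Regions far from genes changed more often than gene starts. The deposited distances matched a single position per gene, within 50 bases, for 98.4% of regions in human hg38 coordinates and for 73.6% in chimpanzee coordinates. They are therefore human distances, and that position is taken here as the gene start. Of 16146 regions at distance 0, 55.4% were not called, and 7.91% rose and 13% fell by 2-fold or more. Of 48458 regions over 50 kb away, 26.3% were not called, and 42.1% rose and 28% fell by 2-fold or more. The share that rose at any fold grew from 35% within 5 kb to 39.2% between 5 and 50 kb and 43.8% beyond, while the share that fell stayed between 29.9% and 30.8%. Gene starts were also the most accessible class, with medians of 20.5 and 19.9 CPM in bRG and 18.1 and 17.8 CPM in N, against 0.971 to 1.57 CPM beyond 50 kb.

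The direction at gene starts depended on the scaling. As reported, 13.4% of regions at distance 0 rose and 31.2% fell, which makes 30.1% of the calls rises. With loess scaling by mean level 40.8% rose and 18.8% fell, or 68.5% of the calls. The share of rises was 20.2% with size factors of the DESeq2 kind in edgeR, 16.8% with the 4 libraries alone and 45.7% when gene starts were fitted by themselves. The median difference at starts was -0.12 as reported and 0.215 with loess scaling. No direction is therefore given for gene starts as a class. From 1 base outward the share that rose grew with distance under both scalings shown in the plot of distance classes.

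**Figure D2:**
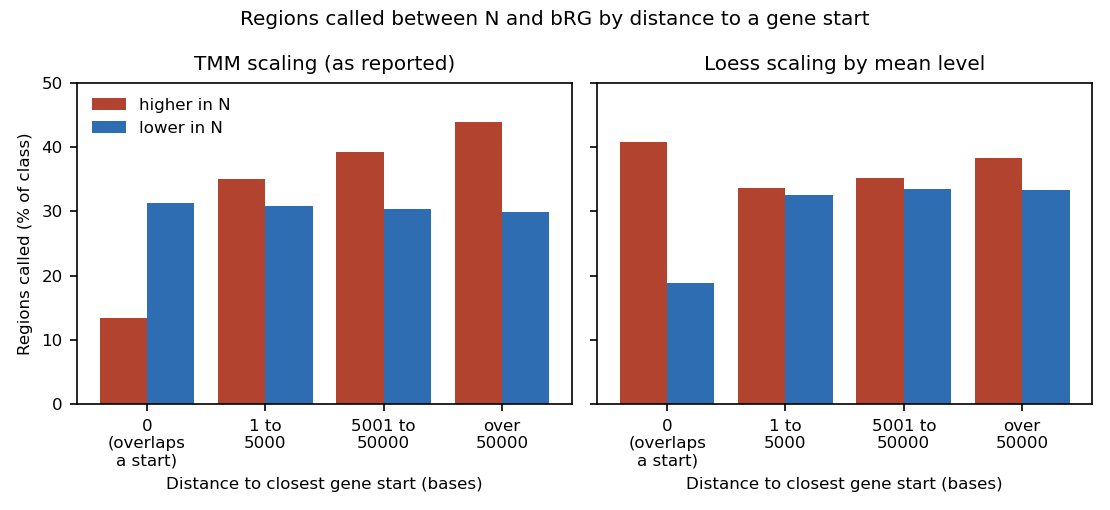
Percent of regions called higher (red) or lower (blue) in N than in bRG, by distance to the closest gene start, with TMM scaling on the left and loess scaling by mean level on the right. At distance 0 the bars change places, from 13.4% higher and 31.2% lower to 40.8% higher and 18.8% lower, while beyond 50 kb more regions were higher than lower in both.

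The peak lists that the authors deposited, 1 per population, overlapped by about the same share of each. Of 86389 N peaks 52.31% overlapped a bRG peak (95% Wilson limits 51.98 and 52.65), and of 89358 bRG peaks 50.33% overlapped an N peak (50 and 50.66). These limits cover counting error only, and 1 list per population gives no replicate spread. The lists and the counts come from the same libraries, so reading one against the other is a description. Of 38301 tested regions in the N list only, 94.6% rose. Of 40488 in the bRG list only, 85.3% fell. The 42265 regions in both lists divided into 22.7% that rose and 24.5% that fell. A further 77173 regions were in neither list, with medians under 1 CPM in each of the 4 libraries, and 36.7% of them rose and 19.9% fell.

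The bIP libraries lay between these states. The aRG and bIP libraries entered the fit, and so its scaling and spread, but not the N minus bRG difference itself. At regions that rose from bRG to N, the median was 0.47 and 0.504 CPM in aRG 1 and 2, and 1.42 and 1.11 CPM in bIP 1 and 2. At regions that fell, it was 4 and 3.78 CPM in aRG and 1.53 and 1.92 CPM in bIP. Both bIP libraries lay between the radial glia and the neurons in both classes. Of the risen regions, 50.4% also rose from aRG to bIP and 0.339% fell, where 24.5% of all regions rose and 22.6% fell in that comparison (47.2% called). Of the fallen regions, 65% also fell from aRG to bIP and 1.79% rose. These shares are a description, with no test.

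**Figure D3:**
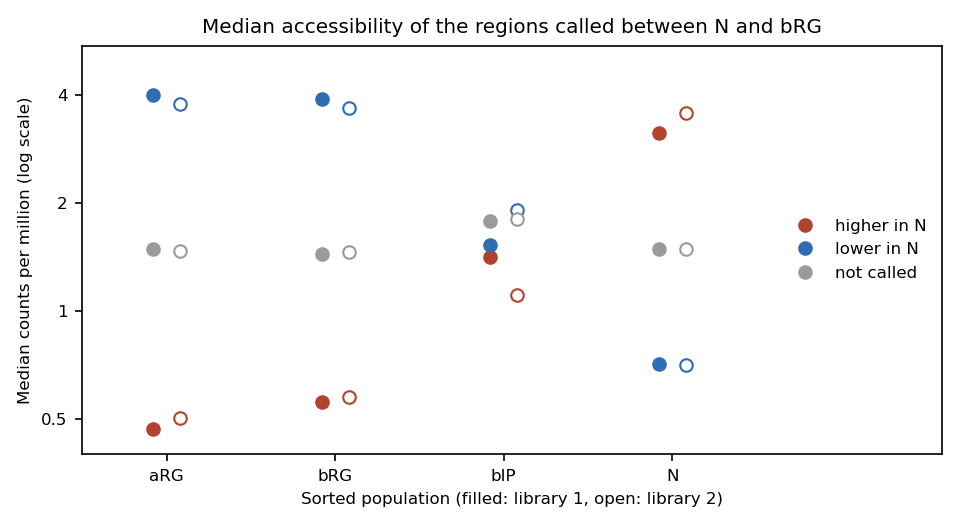
Median CPM (log scale) of regions called higher in N (red), lower in N (blue) or not called (grey) between N and bRG, in each library of the 4 populations. The aRG and bRG medians lie together, bIP lies between 1.11 and 1.92 CPM for both called classes, and the uncalled regions stay between 1.44 and 1.8 CPM throughout.

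Transcription factors that drive or keep the neuronal state rose more often than they fell. Gene lists, here and below, were chosen with earlier results of these data known, so their counts are a description. Each list is to be read beside the shares over all loci, of which 25.2% rose and 26.3% fell. Of 20 neurogenic factor loci tested, 10 rose, 3 fell and 7 did not pass, with a median of 0.37. Without N 1 the falls numbered 6 and the rises 10. ST18, a zinc finger factor of the MYT1 family, had 32.4 and 25.8 CPM in bRG and 171 and 195 CPM in N over 16 regions (2.65 ± 0.16, adjusted p = 1.8e-05). The gain was not confined to 1 region, since 13 of its 15 tested regions within 50 kb rose, where 37.5% of all regions did. NEUROG2, which starts neurogenesis in progenitors and is switched off again in neurons, fell at its single region, from 13 and 23.1 CPM in bRG to 4.23 and 2.69 CPM in N (-2.36 ± 0.44, adjusted p = 0.0023). POU3F2, a factor of both progenitors and upper-layer neurons, fell as well, from 148 CPM in each bRG library to 68.3 and 73.4 CPM in N (-1.06 ± 0.12, adjusted p = 0.00015). Of the 14 deep-layer loci only 2 rose and 8 fell (median -0.44). TBR1 and LDB2 rose, whereas LMO3 (-1.32 ± 0.09, adjusted p = 2.1e-05) and ETV1 (-1.13 ± 0.08, adjusted p = 2.7e-05), a factor of deep-layer output neurons, fell by edgeR's test. The 0.56 rise of LDB2 came from outside its start, and with a 10 kb window the locus fell by 0.45 (adjusted p = 0.025).

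Upper-layer genes divided, with 6 risen and 7 fallen of 15 loci (median -0.28), where 25.2% of all loci rose and 26.3% fell. RASGRF2, a Ras and Rac exchange factor, had 15.8 and 16.7 CPM in bRG and 35 and 40.7 CPM in N (1.22 ± 0.16, adjusted p = 0.00033). UNC5D, a netrin receptor of migrating upper-layer neurons, rose by 0.88 (adjusted p = 0.00017) through its start. MEF2C, a factor of maturing neurons, had 16.8 and 16 CPM in bRG and 3.83 and 4.08 CPM in N, and so was lower in both N libraries (-2.05 ± 0.30, adjusted p = 0.00067). LMO4, a transcriptional cofactor, fell by 1.55 (adjusted p = 3e-05), with 10 of 14 regions down. Of 7 loci of Cajal-Retzius neurons, the early cells of the marginal zone, 3 rose and 1 fell. CALB2, a calcium-binding protein, had 24.8 and 22.3 CPM in bRG and 129.7 and 84.9 CPM in N (2.19 ± 0.30, adjusted p = 0.00046). The fall was at CXCR4, a chemokine receptor that guides these cells and is also found in progenitors. It had 249 and 261 CPM in bRG and 70.7 and 61.3 CPM in N, and all 12 of its regions fell (-1.95 ± 0.11, adjusted p = 1.6e-05).

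Genes of neuronal shape and wiring moved less evenly. Of 20 cytoskeletal and axon growth loci 10 rose and 5 fell (median 0.34). The falls were small, none past -0.32, and their number ran from 0 to 6 across the scalings, with 0 under loess, and it was 1 without bRG 1. NEFL, the light neurofilament, rose from 21.2 and 25.9 CPM in bRG to 66.6 and 77.3 CPM in N (1.61 ± 0.20, adjusted p = 0.00029). Among 29 axon guidance loci, 8 rose and 9 fell, with a median of -0.04, and without N 1 these counts were 5 and 11. Of all loci tested 25.2% rose and 26.3% fell, near the shares of this list as reported. SLIT3, a secreted repellent, rose by 1.16 (adjusted p = 0.0016), through regions away from its start, and DCC, the netrin receptor, rose by 1.02 (adjusted p = 0.00045). ROBO2, a receptor for SLIT proteins, had 382 and 368 CPM in bRG and 170.7 and 170.5 CPM in N (-1.13 ± 0.08, adjusted p = 2.7e-05). So the locus of a ligand of this system was more accessible in N, while that of 1 of its receptors was less so. Expression of these genes was not measured here. PLXNA2, a semaphorin receptor, fell by 0.77 (adjusted p = 0.00021), but with a 10 kb window it did not pass edgeR's test (-0.096, adjusted p = 0.3).

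Most synapse and channel loci rose, where 25.2% of all loci tested rose and 26.3% fell. Of 19 synaptic vesicle and active zone loci 15 rose and 0 fell (median 0.76), and across scalings the counts stayed at 15 and 0. SLC17A6, the vesicular glutamate transporter of early excitatory neurons, had 18.9 and 20.1 CPM in bRG and 85.8 and 68.4 CPM in N (1.99 ± 0.15, adjusted p = 3.1e-05). SV2B, a vesicle glycoprotein, went from 10.8 and 13 CPM to 49.6 and 32.2 CPM (1.79 ± 0.32, adjusted p = 0.002). With a 10 kb window SV2B did not pass edgeR's test (1.11, adjusted p = 0.065). Both N libraries exceeded both bRG libraries at each gene. Of 26 postsynaptic and receptor loci 14 rose and 4 fell (median 0.47), and 2 fell without N 2 or without bRG 1. The postsynaptic scaffold gene SHANK2 was among those that fell, from 97.4 and 66 CPM in bRG to 40.6 and 29.2 CPM in N (-1.22 ± 0.25, adjusted p = 0.0035), and GRIK1, a kainate receptor subunit, fell by 0.70 (adjusted p = 0.001). GRIK1 did not pass edgeR's test with a 10 kb window (-0.14, adjusted p = 0.33) or at its start alone (-0.11, adjusted p = 0.43).

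Of 25 voltage-gated channel loci 17 rose and 3 fell (median 0.70), where 25.2% of all loci rose and 26.3% fell. KCNA1, a potassium channel of axons, had 4.29 and 4.11 CPM in bRG and 37.9 and 55.8 CPM in N over 2 regions (3.47 ± 0.30, adjusted p = 5e-05). SCN3A, the sodium channel of fetal cortex, had 23.1 and 26.7 CPM in bRG and 81 and 101 CPM in N (1.87 ± 0.15, adjusted p = 3.2e-05), and all 5 of its tested regions rose. KCNQ3, a potassium channel gene that limits firing, fell by edgeR's test (-0.76 ± 0.14, adjusted p = 0.0023), though its start alone did not pass (-0.19, adjusted p = 0.32). Of 23 RNA-binding and splicing loci 10 rose and 5 fell (median 0.33). SRRM4, which directs the splicing of neuronal exons, had 37.1 and 35.9 CPM in bRG and 189.5 and 158 CPM in N (2.25 ± 0.13, adjusted p = 1.5e-05). The start held 53.5% of the SRRM4 gain. A region at chr12:116629364-116630326, with 0.736 and 0.749 CPM in bRG and 19.1 and 14.2 CPM in N, held 29.7%. MSI1 (-1.20 ± 0.11, adjusted p = 5.9e-05) and MSI2 (-0.82 ± 0.17, adjusted p = 0.004), RNA-binding proteins of neural stem cells, fell by edgeR's test. CELF4, a splicing factor of excitatory neurons, rose by 1.62 (adjusted p = 0.00024), but with a 10 kb window it did not pass and its difference was -0.44 (adjusted p = 0.43).

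Among the progenitor lists, that of shared radial glia fell at each locus tested, where 26.3% of all loci fell and 25.2% rose. All 22 were lower in N (median -1.24), by between 2.34 and 0.28 on the log2 scale. The other scalings gave 21 or 22 falls and 0 rises. Among 21 loci of the basal radial glia list 11 fell, 3 rose and 7 did not pass (median -0.33). The starts of this list fell more often: 15 of 20 fell and 2 rose (median -1.22), where 24.9% of all starts fell. With a 10 kb window 14 of 20 loci fell and 3 rose (median -0.84). SLCO1C1, a thyroid hormone transporter, had 90.4 and 97 CPM in bRG and 12.3 and 14 CPM in N (-2.84 ± 0.19, adjusted p = 2.2e-05). ITGB5, an integrin subunit, had 161 and 172 CPM in bRG and 27.7 and 22.6 CPM in N (-2.72 ± 0.15, adjusted p = 1.5e-05). In aRG SLCO1C1 had 93.3 and 84.2 CPM and ITGB5 171 and 162 CPM, near the bRG levels. Of the ITGB5 fall, 79.6% lay at chr3:123038027-123039125, with 46.2 and 49.1 CPM in bRG and 1.4 and 1.02 CPM in N (-5.28 ± 0.25, adjusted p = 6e-08), and 20% at the start. CDH13, an adhesion molecule of this list, rose by 1.07 (adjusted p = 0.00082), through regions away from its start.

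Of 18 loci of apical radial glia and apical junctions, 10 fell and 2 rose (median -0.40), with 1 rise without bRG 1 or without bRG 2. INSC, an adaptor that orients the mitotic spindle, had 158 and 124 CPM in bRG and 11.3 and 12.8 CPM in N, 11.8-fold lower in N (-3.56 ± 0.19, adjusted p = 1.5e-05). VCAM1, an adhesion protein of the stem cell niche, fell by 2.41 (adjusted p = 0.00021), and AFDN, a junction protein, rose by 0.85 (adjusted p = 0.0024). Of 20 astroglial and radial fibre loci 16 fell and 1 rose (median -1.04), with 0 rises without N 1, bRG 1 or bRG 2. ALDH1L1, a folate enzyme of astroglia, had 146 and 132 CPM in bRG and 30.7 and 27.9 CPM in N (-2.24 ± 0.11, adjusted p = 1.5e-05). SLC1A2, the main glutamate transporter of astroglia, fell by 2.17 (adjusted p = 9.5e-05). Of all loci tested 25.2% rose and 26.3% fell. The 23 loci of the basal intermediate progenitor list were divided in much the same way, with 7 risen and 5 fallen (median 0.06). This balance turned on single libraries: without N 1 it was 6 risen and 8 fallen, without N 2 it was 8 and 3, and without bRG 1 it was 6 and 3. NEUROD1, active in late progenitors and young neurons, had 54.3 and 61.4 CPM in bRG and 175 and 125 CPM in N (1.38 ± 0.15, adjusted p = 0.00015), while SMOC1, a secreted matrix protein, fell by 1.31 (adjusted p = 0.0029). INSM1 (0.16 ± 0.10, adjusted p = 0.23) and PPP1R17 (0.06 ± 0.08, adjusted p = 0.55) did not pass edgeR's test.

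At signalling loci falls outnumbered rises, where 26.3% of all loci tested fell and 25.2% rose. Of 24 Notch loci 10 fell and 5 rose (median -0.24), or 3 rose without bRG 2. The ligand gene DLL3 rose from 20.1 and 26.3 CPM in bRG to 46 and 44.5 CPM in N (0.97 ± 0.15, adjusted p = 0.00088), while the effector HES5 had 144 and 92.8 CPM in bRG and 58.9 and 28.2 CPM in N (-1.43 ± 0.34, adjusted p = 0.0077). The HES5 call was lost without bRG 1 (-1.08, adjusted p = 0.053). Of 25 BMP and TGF-beta loci 22 fell and 0 rose (median -0.74), and the other scalings gave 19 to 22 falls and 0 rises. Its receptors led, with TGFBR2 at 109 and 89 CPM in bRG and 10.8 and 11.7 CPM in N (-3.14 ± 0.18, adjusted p = 1.5e-05). BMPR2 had 47.1 and 46.3 CPM in bRG and 7.35 and 6.76 CPM in N (-2.72 ± 0.22, adjusted p = 3.5e-05).

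Of 25 loci of FGF and other receptor tyrosine kinase genes 18 fell and 1 rose (median -0.68). The shares over all loci were 26.3% fallen and 25.2% risen. ERBB2, a neuregulin co-receptor, had 55.4 and 52.5 CPM in bRG and 6.07 and 6.27 CPM in N (-3.13 ± 0.21, adjusted p = 2.1e-05), and FGFR2 fell by 1.73 (adjusted p = 2.2e-05). The rise was at the ligand FGF8 (0.95 ± 0.19, adjusted p = 0.0031), which was not called with a 10 kb window (-0.063, adjusted p = 0.81). Of 29 Wnt loci 21 fell and 3 rose (median -0.51). WNT5A, a ligand of the non-canonical branch, had 9.57 and 6.8 CPM in bRG and 108 and 91.4 CPM in N, 12.1-fold higher (3.60 ± 0.34, adjusted p = 6.8e-05). RSPO3, a secreted enhancer of Wnt signals, had 8.37 and 7.05 CPM in bRG and 61.2 and 72.1 CPM in N (3.11 ± 0.25, adjusted p = 3.9e-05). By contrast the secreted antagonist SFRP2 (-2.14 ± 0.08, adjusted p = 1.2e-05) and the transcriptional repressor TCF7L1 (-2.08 ± 0.14, adjusted p = 2.1e-05) fell by edgeR's test. Of 13 Hedgehog loci 8 fell and 1 rose (median -0.38): the ligand SHH rose by 1.59 (adjusted p = 2.2e-05) and GLI3, which patterns the dorsal telencephalon, fell by 1.36 (adjusted p = 3.2e-05).

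The YAP, TAZ and TEAD list, on the growth pathway that reads cell shape, had 9 falls and 3 rises in 19 loci (median -0.19). Here and for the lists that follow, the shares over all loci were 26.3% fallen and 25.2% risen. AXL, a receptor kinase, fell from 63.6 and 56.7 CPM in bRG to 19.6 and 10.9 CPM in N (-1.96 ± 0.23, adjusted p = 0.00022), and the matricellular target CCN1 fell by 1.27 (adjusted p = 7.9e-05). The upstream kinases STK4 (0.71 ± 0.10, adjusted p = 0.00039) and LATS2 (0.74 ± 0.16, adjusted p = 0.0047) rose by edgeR's test. Of 23 matrix and integrin loci 15 fell and 2 rose (median -0.71). ITGA2, a collagen receptor subunit, had 258 and 269 CPM in bRG and 60.5 and 51.7 CPM in N (-2.23 ± 0.14, adjusted p = 1.8e-05), and the rises were at the laminin genes LAMA2 (2.50 ± 0.23, adjusted p = 6.4e-05) and LAMB1 (1.55 ± 0.16, adjusted p = 1e-04). Of 28 loci of genes that shape cell protrusions 12 fell and 6 rose (median -0.21), against 7 and 4 without bRG 1 and 8 and 4 without N 2. EVL, an actin filament elongation factor, rose from 11.3 and 14.9 CPM in bRG to 41.5 and 70.9 CPM in N (2.11 ± 0.29, adjusted p = 0.00043). CDC42, a small GTPase, rose at a single region that was uneven between the N libraries, at 9.74 and 27.7 CPM (3.58 ± 0.58, adjusted p = 0.0011). GPM6A, a membrane protein of filopodia, fell by 1.79 (adjusted p = 5e-05), and CDC42EP1, an effector of CDC42, by 1.35 (adjusted p = 0.00046).

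Of 28 cell cycle and replication loci 14 fell, 1 rose and 13 did not pass (median -0.23), and the falls numbered 10 to 14 across scalings, 9 without N 1 and 8 without bRG 2. CCND1, the cyclin that takes cells into the cycle, had 239 and 215 CPM in bRG and 117 and 101 CPM in N (-1.06 ± 0.09, adjusted p = 4.9e-05). CCNE1 rose by 0.92 (adjusted p = 0.00044), through regions away from its start, and it did not pass with a 10 kb window (0.04, adjusted p = 0.8). BAF chromatin remodelling subunits are exchanged as progenitors become neurons. Of 21 such loci 7 rose and 4 fell, with a median of 0.00, and 2 fell without bRG 2. Over all loci tested 25.2% rose and 26.3% fell. The BAF loci named by rule were SMARCD3 (1.13 ± 0.09, adjusted p = 4.2e-05) and SS18L1 (1.39 ± 0.27, adjusted p = 0.0027), subunits of the neuronal form, which rose, and BCL11A (-0.87 ± 0.10, adjusted p = 0.00021), which fell by edgeR's test.

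**Figure D4:**
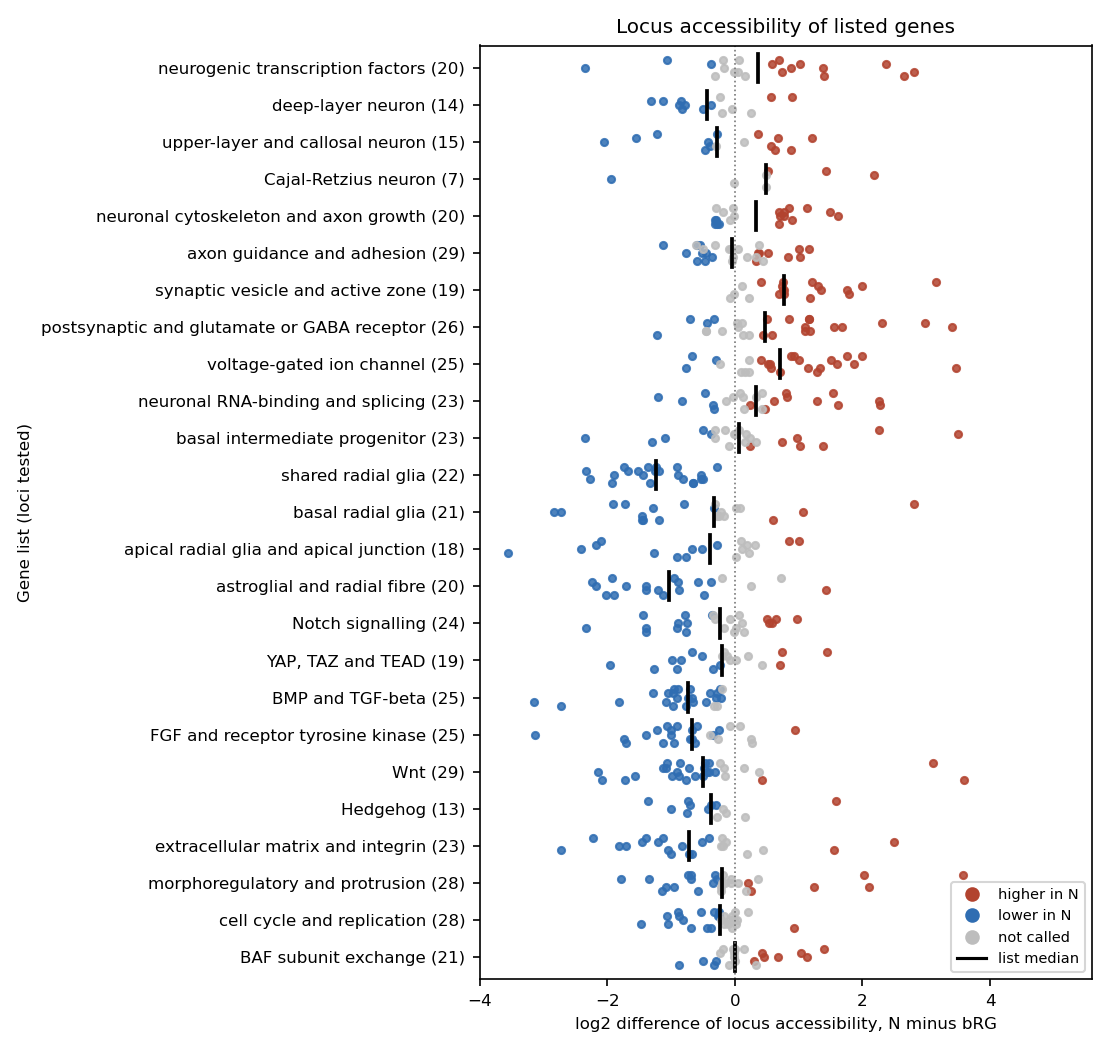
Each point is the log2 difference (N minus bRG) of 1 gene locus in 25 gene lists, red where higher in N, blue where lower and grey where not called, with the list median as a black bar and the number of loci tested in brackets. Synaptic vesicle genes have no blue point, and the shared radial glia and BMP lists have no red one.

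In the lists of other cell types falls outnumbered rises, except for endothelium and microglia. Among all loci tested 26.3% fell and 25.2% rose. The falls were 13 of 19 loci of inhibitory neurons and ganglionic eminence (2 rose), 9 of 15 of choroid plexus and hem (3 rose), 9 of 15 of midbrain, hindbrain and spinal cord (3 rose) and 10 of 16 of mesenchyme and neural crest (1 rose). They were 5 of 12 loci of the oligodendrocyte lineage (1 rose), 6 of 9 pluripotency loci (0 rose) and 2 of 11 of endothelium and microglia (4 rose). For inhibitory neurons, choroid plexus, midbrain and mesenchyme, some fits with a library left out called fewer rises. Such fits hold 1 library in a group and called fewer loci of any kind, so they do not single out a library. Summed over its list, inhibitory neuron accessibility was 1449 and 1407 CPM in bRG and 864 and 715 CPM in N. For endothelium and microglia the sums were 281 and 233 CPM in bRG and 396 and 308 CPM in N, so the lowest N library was above the highest bRG library by a small margin. DLX1, a factor of inhibitory neurons, had 137 and 128 CPM in bRG and 26.8 and 26.7 CPM in N (-2.31 ± 0.15, adjusted p = 2.1e-05). FLT1, a VEGF receptor, rose from 6.97 and 8.14 CPM in bRG to 79.2 and 46.6 CPM in N (3.06 ± 0.28, adjusted p = 5.9e-05), and CDH5, the endothelial cadherin, from 14 and 11.8 CPM to 83.8 and 70.02 CPM (2.57 ± 0.27, adjusted p = 0.00012). Neither FLT1 nor CDH5 had a tested region at its start. Whether other cells in the gates had a part in these values was not tested. Of 15 loci of glycolysis, hypoxia and stress, 4 rose and 6 fell (median -0.12). Without N 1 or without bRG 2 there was 1 rise and 5 falls, without N 2 there were 4 and 3, and without bRG 1 there were 2 and 3.

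Gene starts and the rest of their loci often moved differently. Among 7131 genes with both, the difference at the start had quartiles of -0.36 and 0.23, and that of the rest -0.81 and 1.12. Of 1979 genes whose start fell, 763 had a rest that fell and 567 a rest that rose. Of 1467 genes whose start rose, 665 had a rest that rose and 301 a rest that fell. Over all 7131 genes the rest rose in 34.7% and fell in 29.4%. Over every gene with a rest to test these shares were 34.4% and 29%, or 63.4% called, and over every gene with a start they were 21% and 24.9%, or 45.9% called. In percent, the rest rose for 45.3% of genes with a risen start and for 28.7% of genes with a fallen start.

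FABP7, a lipid-binding protein of radial glia, shows such a division within 1 locus. Its start at chr6:120139690-120141588 had 74.2 and 74.1 CPM in bRG and 12.5 and 11 CPM in N (-2.65 ± 0.18, adjusted p = 2.7e-07). A region 8 kb away at chr6:120131746-120132745 had 0.5 and 0.646 CPM in bRG and 3.63 and 5.26 CPM in N (2.95 ± 0.37, adjusted p = 1.9e-05). The first was less accessible in N and the second more, though the start stayed the higher of these in N. The locus sum (-1.92 ± 0.18, adjusted p = 6.9e-05) followed the stronger start. LATS2 had the same pattern with the other outcome. Its start fell from 17.6 and 14.6 CPM in bRG to 6.71 and 5.5 CPM in N (-1.40 ± 0.21, adjusted p = 7.2e-05), and a region at chr13:2183573-2185581 rose from 4.09 and 3.4 CPM to 22 and 21.6 CPM (2.54 ± 0.27, adjusted p = 4.7e-06). At LAMA2 the start fell (-1.74, adjusted p = 0.0066) and the rest rose (3.59, adjusted p = 5.9e-06), and at AXL the start fell (-2.04, adjusted p = 3.1e-05) and the rest rose (1.55, adjusted p = 0.049), each by edgeR's test of starts and rests fitted separately. At TBR1 the start rose (1.23, adjusted p = 3.8e-05) and the rest did not pass (-0.43, adjusted p = 0.084).

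**Figure D5:**
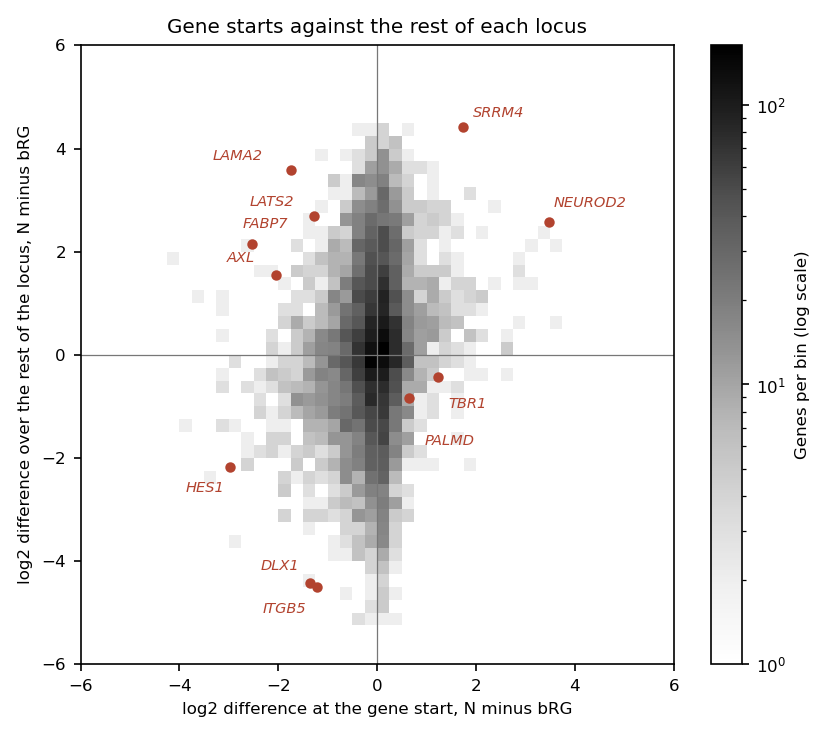
Log2 difference (N minus bRG) at the gene start against that over the rest of the locus for 7131 genes, as counts of genes per bin (grey, log scale), with named genes in red. The cloud is taller than wide, and LAMA2, LATS2, FABP7 and AXL lie where the start was lower and the rest higher in N.

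Regions of opposite direction near 1 gene were common. Of 3225 loci with 5 or more tested regions, 2285, or 70.9%, held both risen and fallen regions, 493 held risen ones only and 433 fallen ones only. In 930 of the mixed loci the sum was not called. Of all tested regions closest to a protein-coding gene, at any distance, 32.3% rose and 29.8% fell. With such shares a locus of 5 or more regions would often hold both directions. The share of mixed loci that these alone would give was not worked out, so 70.9% is a description only. MAP2, a microtubule protein of dendrites, had 266 and 265 CPM in bRG and 195 and 239 CPM in N in sum (-0.29 ± 0.12, adjusted p = 0.069, edgeR), and without N 2 it passed (-0.45, adjusted p = 0.022). Within it 7 of 22 regions rose and 10 fell. At chr2B:96211802-96212613 the level went from 11.8 and 13.2 CPM in bRG to 0.497 and 0.668 CPM in N (-4.43 ± 0.41, adjusted p = 2.1e-06). At chr2B:96153550-96153940 it went from 0.294 and 0.476 CPM to 4.07 and 8.41 CPM (4.01 ± 0.44, adjusted p = 6.4e-06). These regions moved 16-fold or more in opposite directions while the sum showed little.

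CORO2B, an actin-binding protein of the coronin family, had the most regions of its rarer direction, 9 risen and 12 fallen of 25, and a sum near 0 (-0.11 ± 0.11, adjusted p = 0.43, edgeR; -0.29, adjusted p = 0.027 without N 1). With loess scaling the CORO2B sum was higher in N (0.32, adjusted p = 0.015). FIGN, a microtubule-severing protein, had 7 risen and 7 fallen regions and a sum that fell by 0.92 (adjusted p = 6e-04). EML1 (7 and 11 of 24) and DPYSL3 (7 and 8 of 17) were mixed as well. Other loci, named here after their values were seen, went largely 1 way. KCNN3, a calcium-activated potassium channel, had 16 risen and 2 fallen regions of 22, and OLFM1, a secreted neuronal glycoprotein, 13 and 0 of 19. PBOV1 had 14 and 0 of 15, LRTM2 14 and 1 of 16, and ABTB1 13 and 0 of 16. LRIG1, which restrains growth factor receptors, had 1 risen and 16 fallen of 23, and FGFR3 0 and 11 of 14.

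The loci that rose most among those with 3 or more regions and a mean of at least 10 CPM were CD33, TMEM252, ZGLP1, TMEM59, SLC41A2, REG1B, CCK and NPY2R. Their differences ran from 3.97 to 4.23. CCK, the neuropeptide cholecystokinin, had 2.96 and 3.69 CPM in bRG and 50.5 and 54.1 CPM in N (3.98 ± 0.33, adjusted p = 4.1e-05). NPY2R, a neuropeptide Y receptor, had 3.52 and 3.69 CPM in bRG and 55.2 and 57.9 CPM in N (3.97 ± 0.26, adjusted p = 2e-05). None of these 8 loci had a tested start region. CD33 and REG1B belong to families of close copies, and the sources used here do not say how reads that fit several places were counted. The loci that fell most were TECTB, BTD, ZFP42, TEX101, SDR16C5, HSD17B2, SLC14A2 and PLB1, from -4.97 to -3.59. TECTB, named for a protein of the inner ear, had 108 and 135 CPM in bRG and 3.67 and 4.08 CPM in N, 31.4-fold lower (-4.97 ± 0.40, adjusted p = 3.7e-05). ZFP42, a pluripotency factor, had 123 and 158 CPM in bRG and 7.5 and 8.16 CPM in N, although no region tested lay at its start (-4.17 ± 0.37, adjusted p = 5.1e-05). At most of these 16 loci the gene itself is not known for a role in the cortex.

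Single regions moved further still. Among called regions with a mean of at least 10 CPM, the one with the deepest fall, at chr2B:58544706-58545429 and 35.2 kb from METAP1D, had 39.4 and 36.8 CPM in bRG and 0.186 and 0.432 CPM in N, 126-fold lower (-6.98 ± 0.35, adjusted p = 6.4e-08). It had 42.8 and 38.8 CPM in aRG and 4.25 and 7.91 CPM in bIP, so the bIP libraries lay between the radial glia and N. The 4 next lay near TTLL4, THSD7B, EED and KDM3B, at -6.44 to -6.31. In the same class the region with the greatest rise, at chr6:143291681-143292522 and 16.4 kb from SHPRH, had 0.53 and 0.68 CPM in bRG and 19.8 and 22.8 CPM in N, 35-fold higher (5.13 ± 0.33, adjusted p = 1.9e-07). It had 2.44 and 1.69 CPM in bIP, far below N. Those near NME9, SOWAHB, TEC and SH3GL3 rose by 4.36 to 4.64. The 5 fallen regions were in the bRG peak list and not the N list, and the 5 risen ones the reverse.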

How the data were processed

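Bulk ATAC-seq counts of 8 libraries from 1 chimpanzee stem cell line were used. Per the file headers, the authors deposited whole-number read counts per region, unscaled, with human, chimpanzee and gorilla identifiers, a closest gene and its distance. Tools and builds in the submitters' processing notes are MACS2, bcl2fastq 2.20.0, hg38 and panTro6; the sources used here name no aligner. The deposited peak list of each population gives, in the narrowPeak layout, a fold enrichment ratio and a -log10 q-value per interval; the intervals and the -log10 q were used, and the ratio was not.

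Of 218080 regions, 6725 without a chimpanzee identifier (total count 0) and 7 repeated identifiers were removed. Starts were taken as counted from 0, and 1 was added. Of 41376 closest genes, 14206 matched a protein-coding symbol of a RefSeq gene table (NHGRI_mPanTro3-v2.0_pri, names only). Loci joined 47692 regions into 14187 genes.

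edgeR 4.0.16 (quasi-likelihood, robust, TMM, filterByExpr) was fitted to all 8 libraries with population as the term, which left 4 residual degrees of freedom. It tested 198227 regions and 14070 loci, and log2 CPM used a prior count of 2. The common biological coefficient of variation was 0.216 for regions and 0.107 for loci. DESeq2 1.42.0, other scalings, filters, windows, a block, a 2-fold test and omission of each library were tried, and the steps were tested on simulated data. There 0 of 67 regions changed 1.5-fold, 2 of 67 changed 2-fold and 41 of 66 changed 4-fold were recovered. For loci these counts were 39 of 67, 52 of 67 and 64 of 66. Far fewer features were changed there than were called here. A region that was not called is thus not shown to be unchanged. Named loci were the markers, up to 2 risen and 2 fallen per list by size with a mean of 10 CPM or more, the 8 most changed each way, the 5 most mixed, and the 5 most changed regions each way. The members and the 33 gene lists (670 genes) were chosen with earlier results of these data known. Some loci that this rule selects are not reported here. Motifs in promoters were not analysed here.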

Additional observations from a re-analysis of the deposited data

How the results depend on the processing

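With 2 libraries a population the fits rest on 4 residual degrees of freedom, and regions under 1 CPM carry few counts. Of 125 named loci, 114 were called, and 110 kept their call and direction in every scaling, filter, tool, block and left-out library tried. The exceptions, whose calls were lost, were TUBB3 (-0.32 as reported; -0.15 with loess, -0.26 without bRG 1), TUBB2B (-0.31; -0.053 with loess, -0.26 without N 2, -0.29 without bRG 1), DPYSL3 (-0.30; -0.060 with loess) and HES5 (-1.43; -1.08 without bRG 1). Against a 2-fold change 74 of the 114 were called. Counts of regions stayed within 1.5 times in every setting: 55239 rose and 40458 fell against a 2-fold change, and leaving out each library gave 63192 to 71829 risen and 52247 to 57073 fallen regions. Loci that rose numbered 2544 to 3266 and those that fell 2829 to 3513 when a library was left out, 893 and 834 against a 2-fold change, and 2174 and 2581 at gene starts alone. With an overlap of 50% of the interval required, the shares of the peak lists were 49.96% of N and 48.14% of bRG. With a 2-fold minimum, 7.91% rose and 13% fell at gene starts, 32.2% and 26.9% within 5 kb, 36.9% and 27.8% to 50 kb, and 42.1% and 28% beyond. The cause was not tested except where fewer regions entered.

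Direction turned with the regions that were summed. At distance 0 alone the differences were 0.36 for BCL11B, 0.10 for EOMES, 0.25 for TUBB3, -1.01 for MOXD1, 0.65 for PALMD, -0.27 for PPP1R17, -0.26 for LDB2, 0.29 for SMOC1, -1.27 for LATS2, -1.74 for LAMA2, 0.19 for SLC14A2 and 0.40 for MAP2. Away from the start, an alternative chosen after seeing the data, they were -0.43 for TBR1, 0.29 for FAM107A, 2.15 for FABP7, -0.33 for INSM1, -0.61 for UNC5D and 1.55 for AXL. Within 10 kb they were 0.56 for PTPRZ1, -0.35 for MOXD1, -0.45 for LDB2, -0.44 for CELF4, 0.34 for SMOC1, -0.57 for LATS2, -0.063 for FGF8, -1.77 for LAMA2 and 0.094 for CORO2B. With loess scaling they were 0.32 for CORO2B and 0.18 for EML1. Without 1 library EOMES ranged from -0.46 to 0.093, MOXD1 from -0.093 (-0.030 without N 2) to 0.15, PPP1R17 from -0.011 to 0.13 and CORO2B from -0.29 to 0.051.

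The labels number the libraries 1 and 2 but do not say that a number marks a shared batch, and 2 pairs are too few to show it. Deviations of the same-numbered N and bRG libraries correlated at 0.336 over loci and 0.2 over regions. With the library number as a replicate block, 78837 regions rose and 64411 fell, and 4383 loci rose and 4408 fell. BCL11B (-0.23, adjusted p = 0.0078), PTPRZ1, FAM107A, PALMD, EML1 and MAP2 then passed as lower in N.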

Other observations

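Some changed regions lay next to one another in long runs, read off after their values were seen. Counting neighbouring tested regions called in the same direction, the median of 37805 risen and of 35545 fallen runs was 1 region. Runs of 10 or more numbered 254 among those that rose, with 3074 regions or 4.14% of the risen ones, and 85 among those that fell, with 1013 or 1.68%. The longest risen run held 24 regions over 133.2 kb of chromosome 19, at CHST8, a sulfotransferase, and KCTD15, an inhibitor of neural crest formation. Summed over this run, accessibility was 25.8 and 31.3 CPM in bRG 1 and 2, 141 and 123 CPM in bIP and 128 and 105 CPM in N. It was thus as high in bIP as in N. A run of 23 risen regions over 277 kb of chromosome 16, with no protein-coding gene closest to it, had 12.7 and 11.1 CPM in bRG, 47.6 and 23 CPM in bIP and 145 and 154 CPM in N. Here most of the gain lay between bIP and N.

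The longest fallen run held 21 regions over 760.4 kb of chromosome 19, from CEACAM8 to TEX101, with 113.5 and 107.7 CPM in bRG and 7.79 and 6.52 CPM in N. That interval holds the PSG and CEACAM families of close copies, and how reads that fit several places were counted is not stated in the sources used here. A run of 18 fallen regions over 263.8 kb of chromosome 13 was closest to SOX21, a progenitor factor, and non-coding genes. Its sum was 256 and 237 CPM in bRG, 72.5 and 99.3 CPM in bIP and 27.7 and 25.2 CPM in N. Runs of 20 fallen regions lay near F3, the tissue factor gene, and near HDDC2.

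Regions also differed by width and by the species that share them. Of the narrow regions, up to 717 bases, 39.8% rose and 26.3% fell, and of the wide ones, over 1077 bases, 32.4% rose and 34.6% fell. Of 186364 regions with identifiers in all 3 species 37.9% rose and 30.4% fell, and of 2096 with a chimpanzee identifier alone 29.3% rose and 33.6% fell. Width moves with level and with distance, and their part in these shares was not tested.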
